A study of Mus musculus with 30 samples.

Results

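The genes described are 6 of BDNF and neurotrophin signalling: the ligands Bdnf and Ntf3, the receptors Ntrk2 (TrkB), Ntrk3 (TrkC) and Ngfr (p75NTR), and Sort1 (sortilin). They were chosen by name as genes of this pathway and matched by Ensembl identifier in a table of 55335 genes. All 6 were in the table and all 6 were among the 19368 genes that passed a filter on low counts.

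The RNA was bound to tagged ribosomes of the nucleus accumbens of female mice. In D1-Cre-RT mice the tag (RiboTag, RT) is switched on by Cre recombinase driven by the gene of the D1 dopamine receptor, and these libraries are called D1. In A2A-Cre-RT mice it is switched on by Cre driven by the gene of the A2A adenosine receptor, which marks the medium spiny neurons that carry the D2 dopamine receptor, and these libraries are called D2. The 6 groups were D1 Control, D1 Resilient and D1 Susceptible (all D1-Cre-RT), and D2 Control, D2 Resilient and D2 Susceptible (all A2A-Cre-RT), with 5 libraries each. Control is the treatment label of the mice outside the 2 stress groups. Resilient and Susceptible mice went through chronic witness defeat stress, in which a female sees another mouse being defeated, and were then divided by their social interaction scores. Every library pooled tissue of 4 mice with similar interaction ratios, taken 24 h after the interaction test. The sources used here give neither strain nor age. The replicates are pools, so p-values measure the spread between pools and not between single mice. The 2 classes of neuron came from separate mouse lines, and class and line cannot be told apart.

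Neurotrophins are secreted as precursors. BDNF acts mainly through TrkB and NT-3 mainly through TrkC, which are receptor tyrosine kinases that start Ras-MAP kinase, PI3 kinase and phospholipase C signalling, while the precursors bind p75NTR together with sortilin. Sortilin also sorts BDNF in the cell. In the striatum and nucleus accumbens much of the BDNF is known to come from axons of cortical and midbrain neurons, and medium spiny neurons carry TrkB. Both TrkB and TrkC exist as full-length kinases and as truncated forms, and truncated TrkB is the form that astrocytes carry.

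Gene counts per library were 28996168 to 65882152. The class labels were met by the markers: all 6 markers of D1 neurons were higher in D1 and all 5 markers of D2 neurons lower (edgeR's quasi-likelihood test, adjusted p under 0.05). Libraries nevertheless stood apart. In D1 Susceptible replicate 1 the single feature Gm42418 took 54.9% of the gene counts, against at most 5.46% in the other 29. D2 Susceptible replicates 1 and 2 had 15822 and 16525 genes with a count, and the other 28 libraries had 19440 to 22375. D2 Resilient replicate 5 had a summed level of D1 neuron markers of 1731 CPM, inside the D1 range of 1608 to 2428 CPM. CPM is the number of counts per 1000000 counts of the library, after TMM scaling. Several of the results that these 4 libraries touch are also given without them.

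Per kilobase of exon, sortilin and the Trk receptors were the abundant members and the ligands and p75NTR the scarce ones. Sort1 had a mean level of 34.4 CPM per kb over the 30 libraries, followed by Ntrk2 at 17.96, Ntrk3 at 6.72, Bdnf at 1.36, Ngfr at 0.256 and Ntf3 at 0.169 CPM per kb. In 30 of 30 libraries Sort1 was above Ntrk2, Ntrk2 above Ntrk3, and Ntrk3 above Bdnf on this scale, and Ngfr was above Ntf3 in 21 of 30. The order depends on the length, which merges all annotated exons of a gene. It was 7569 bases for Sort1, 19292 for Ntrk2 and 30170 for Ntrk3. In CPM, without division by length, Ntrk2 (mean 346.5) was above Sort1 (260.5) and Ntrk3 (202.7). The mean CPM of Ntrk2 stood at percentile 97.6 of the genes tested, that of Sort1 at 96.3 and that of Ntrk3 at 94.8, whereas Bdnf stood at 50.6, Ngfr at 27.8 and Ntf3 at 15. Of the neurotrophin genes outside the set, Ntf5 (NT-4/5) had a mean of 0.0122 CPM per kb, with 53 counts in all 30 libraries, too few to be tested. Among relatives of sortilin, Sorl1 had 26.5, Sorcs3 13, Sorcs2 4.27 and Sorcs1 3.90 CPM per kb.

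**Figure D1:**
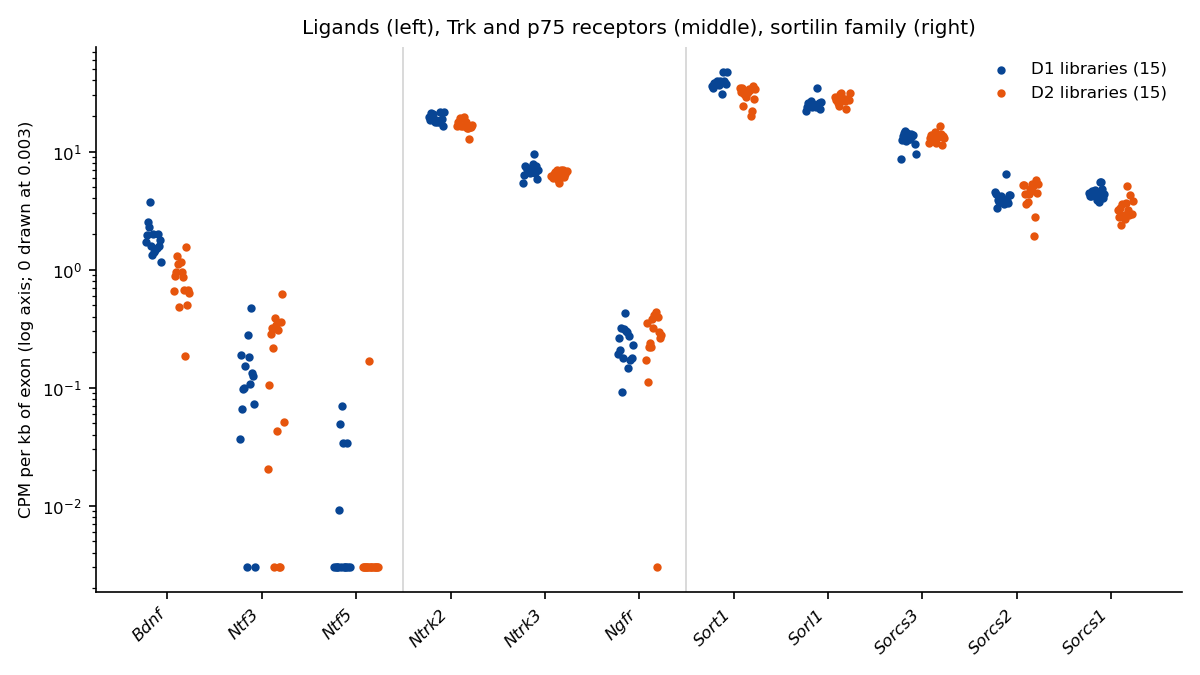
Level of the 6 genes, Ntf5 and the relatives of sortilin in CPM per kilobase of exon (log axis, 0 drawn at 0.003), 1 point a library, 15 D1 libraries in blue and 15 D2 libraries in orange. Sort1 and Ntrk2 lie above 12 CPM per kb in every library, while Ntf3 and Ngfr stay below 0.62 CPM per kb and reach 0 in some libraries.

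Bdnf is the gene of brain-derived neurotrophic factor (ENSMUSG00000048482, GRCm38 chr2:109674700-109727007, plus strand). The annotation gives it 11 transcripts from 9 start sites, all with a coding part of 747 to 867 bases, and the gene counts add them up, so they do not show which start was used. RefSeq lists 7 start windows for it on GRCm38.p6. Bdnf is known as a gene that neuronal activity induces through CREB, and the windows were searched on both strands for the core of the CREB site, ACGTCA (reverse complement TGACGT), which is part of the full site TGACGTCA. The core was in 1 of the 7 Bdnf windows, and it was in 7.51% of all 32851 windows of 300 bases; the full site was in none of the 7 and in 1.79% of all. That window is shown because it is the only Bdnf window with the core, which starts 36 bases before the start site at position -36 and is in capitals. Ntf3 had 2 windows, Ntrk2 1 and Ngfr 1, none with these letters, and Ntrk3 and Sort1 were not matched. The 250 bases before the start, chr2:109692186-109692435 on the plus strand, read:
Bdnf start window 3: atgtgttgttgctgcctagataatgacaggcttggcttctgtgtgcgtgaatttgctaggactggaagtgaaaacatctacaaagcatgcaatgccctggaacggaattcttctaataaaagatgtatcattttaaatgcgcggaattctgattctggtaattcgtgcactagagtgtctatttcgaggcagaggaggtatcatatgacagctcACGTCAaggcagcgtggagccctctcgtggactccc

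Bdnf was the member that differed most between the classes of neuron, and it was higher in D1. In Control mice the 5 D1 libraries held 10.6, 12.1, 15.6, 14.2 and 23.4 CPM of Bdnf (mean 15.2 ± 4.98 SD), and the 5 D2 libraries 4.10, 5.45, 5.89, 8.02 and 6.87 CPM (mean 6.07 ± 1.48 SD). Every D1 Control library was above every D2 Control library, and the highest was D1 Control replicate 5. The share of all genes whose groups do not overlap was not counted, here or in the comparisons below. The log2 difference was 1.32 (standard error 0.321, a 2.50-fold higher level, edgeR quasi-likelihood test over all genes, adjusted p 0.00750). Without D1 Control replicate 5 it was 1.13 and still passed. Bdnf was the 1 member of 6 to pass in Control mice, where 8.3% of all genes tested passed in either direction and 3.51% were higher in D1.

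In Resilient mice the D1 libraries held 9.90, 8.20, 12.6, 8.73 and 9.14 CPM of Bdnf and the D2 libraries 3.00, 7.20, 5.88, 5.37 and 4.20 CPM. The groups again did not overlap. The log2 difference of 0.92 (standard error 0.320, 95% interval 0.27 to 1.57) did not pass (edgeR quasi-likelihood test, adjusted p 0.0902). It passed without the 4 libraries that stood apart, at 0.85 (edgeR adjusted p 0.0112), of which only D2 Resilient replicate 5 is a Resilient library. With any 1 of the 10 Resilient libraries left out, that one included, it did not pass (edgeR adjusted p 0.0570 to 0.263). None of the 6 members passed in Resilient mice, against 6.65% of all genes.

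In Susceptible mice the D1 libraries held 9.54, 12.4, 9.93, 11.1 and 7.26 CPM of Bdnf and the D2 libraries 1.16, 9.60, 3.12, 4.20 and 3.97 CPM. The lowest and the highest of the D2 values were those of D2 Susceptible replicates 1 and 2, and only replicate 2 reached into the D1 range. The log2 difference was 1.19 (standard error 0.323, edgeR quasi-likelihood test, adjusted p 0.00837). Without those 2 libraries it was 1.44 (edgeR adjusted p 0.000175). Averaged over the 3 treatments, Bdnf was 2.21-fold higher in D1 (log2 difference 1.14, standard error 0.185, edgeR adjusted p 1.68e-05), and 10 of 15 D1 libraries were above all 15 D2 libraries. Taking the 6 groups by mean, the order ran D1 Control, D1 Susceptible, D1 Resilient, D2 Control, D2 Resilient, D2 Susceptible, and of neighbours in that order only D1 Resilient and D2 Control did not overlap.

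**Figure D2:**
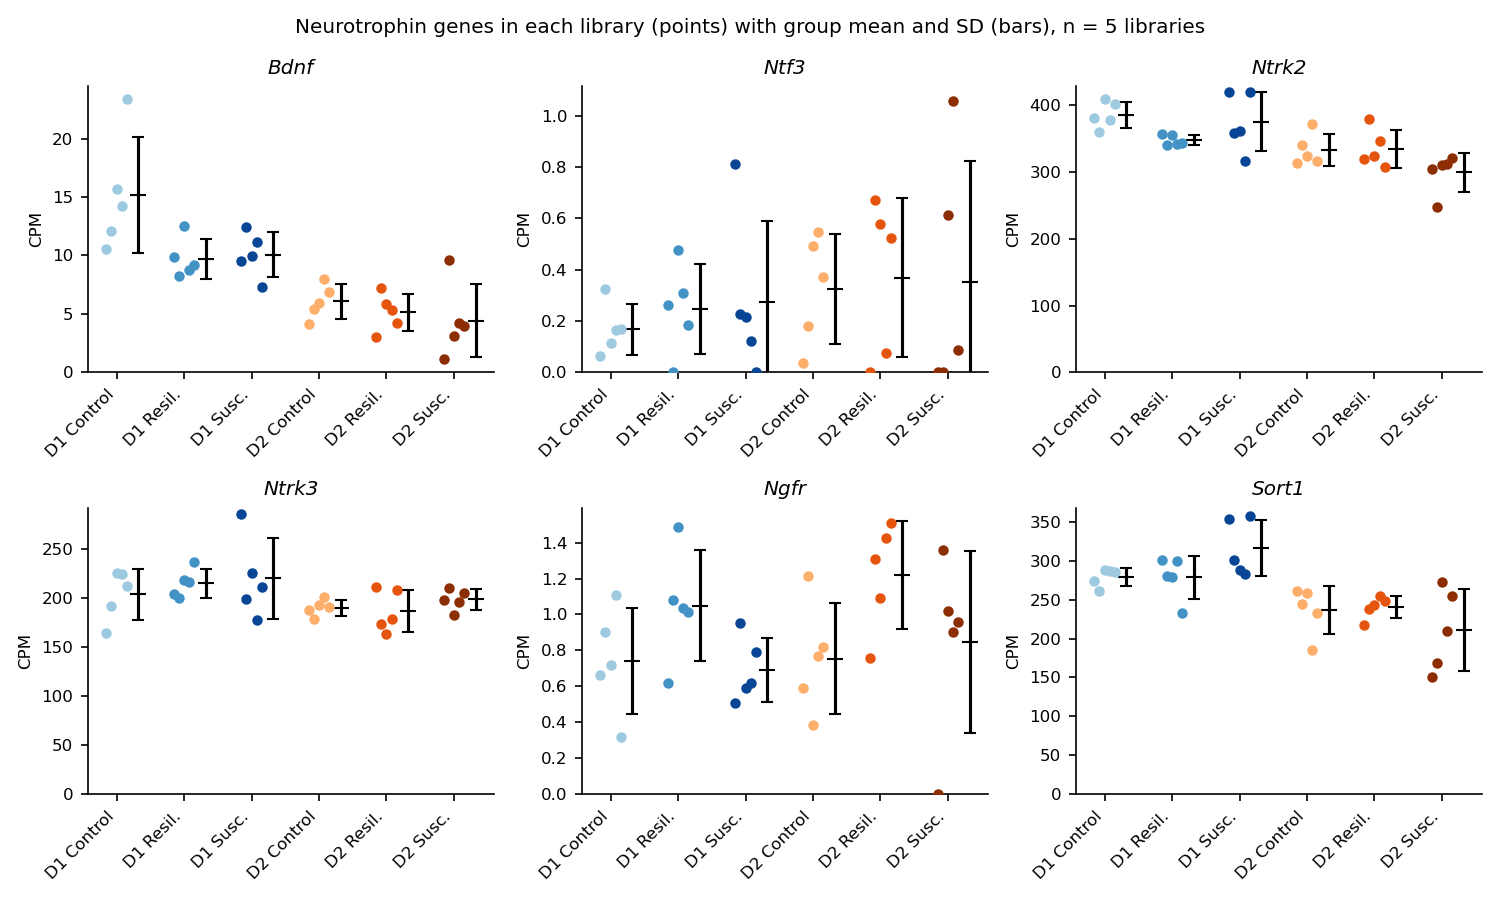
CPM of the 6 genes in each library (points) with the mean and SD of each group of 5 (bars, which stop at 0 where mean minus SD is below it), D1 groups in blue and D2 groups in orange, each axis starting at 0. Bdnf in D1 Control lies at 10.6 to 23.4 CPM, above the 4.10 to 8.02 CPM of D2 Control, while Ntrk3 overlaps in all 6 groups.

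Ntrk2 codes for TrkB, the receptor of BDNF (ENSMUSG00000055254, GRCm38 chr13:58806569-59133970, plus strand). Its 7 protein-coding transcripts have coding parts of 1398 to 2463 bases, so its counts add full-length and truncated receptor. In Control mice Ntrk2 was at 381, 360.1, 409, 378 and 402 CPM in D1 and at 314, 341, 324, 373 and 316 CPM in D2. The groups overlapped through D2 Control replicate 4, and the log2 difference of 0.21 (standard error 0.0812) did not pass (edgeR quasi-likelihood test, adjusted p 0.114). In Resilient mice the values were 341 to 357 CPM in D1 and 308 to 379.8 CPM in D2, a log2 difference of 0.05 with a 95% interval of -0.11 to 0.22.

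In Susceptible mice Ntrk2 was at 421, 359.5, 361, 317 and 420.4 CPM in D1 and at 305, 248, 311, 313 and 321 CPM in D2. Here 4 of the D1 libraries were above all D2 libraries, and D2 replicate 2 was the lowest of the 30. The log2 difference was 0.33 (standard error 0.0813, 1.25-fold higher in D1, edgeR quasi-likelihood test, adjusted p 0.00451). It was 0.28 without D2 Susceptible replicates 1 and 2 (edgeR adjusted p 0.0298) and 0.22 without all 4 libraries that stood apart (edgeR adjusted p 0.101), which no longer passed. Averaged over the treatments Ntrk2 was 1.15-fold higher in D1 (log2 difference 0.20, standard error 0.0469, edgeR adjusted p 0.00173), and it also passed without the 4 libraries (0.15, edgeR adjusted p 0.0102).

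Ntrk3 codes for TrkC, the receptor of NT-3 (ENSMUSG00000059146, GRCm38 chr7:78175959-78738012, minus strand), with 6 protein-coding transcripts that have coding parts of 248 to 2592 bases. In Control mice Ntrk3 was at 164, 192, 226, 225 and 213 CPM in D1 and at 188, 179, 193, 202 and 191 CPM in D2. The D1 values ran from below to above the D2 values. The log2 difference was 0.10 in Control, 0.20 in Resilient and 0.15 in Susceptible mice, and none passed (edgeR adjusted p 0.684, 0.342 and 0.305). Averaged over the treatments it was 0.15 (standard error 0.0579, 95% interval 0.03 to 0.27) with an edgeR adjusted p of 0.0509, next to the threshold of 0.05. It passed when any 1 of 29 libraries was left out and not when D1 Susceptible replicate 1, the highest Ntrk3 library of all at 287 CPM, was left out (0.10, edgeR adjusted p 0.120). The 29 values, 0.151 to 0.188, were all above the 0.149 of the full fit. Each of these fits repeats the filter and the scaling, and their part in the passes was not tested. With all libraries and no filter on low counts the difference was 0.167 (edgeR adjusted p 0.0353). Without all 4 libraries that stood apart the difference was 0.14 (edgeR adjusted p 0.0445).

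Ngfr codes for p75NTR, which binds all neurotrophins and their precursors (ENSMUSG00000000120, GRCm38 chr11:95568818-95587735, minus strand). It was at 0.316 to 1.49 CPM in the D1 libraries and at 0 to 1.51 CPM in the D2 libraries, from 0 to 97 counts. The averaged log2 difference was -0.17 with a 95% interval of -0.84 to 0.49 (edgeR adjusted p 0.737). Ntf3 codes for NT-3 (ENSMUSG00000049107, GRCm38 chr6:126101412-126166910, minus strand). It was at 0 in 2 D1 libraries and 3 D2 libraries and reached 0.812 CPM in D1 and 1.06 CPM in D2, from 0 to 69 counts. Its averaged log2 difference was -0.68 with a 95% interval of -2.07 to 0.72 (edgeR adjusted p 0.498). For neither gene did the interval exclude a difference in either direction. For counting error alone, a count of 0 leaves room for 3 counts, which is 0.0430 to 0.304 CPM over all libraries of the series. The ends of that range are D2 Control replicate 5 and D1 Susceptible replicate 1, and neither was at 0 for Ngfr or Ntf3.

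Sort1 codes for sortilin, a sorting receptor that binds the precursors and the pro-part of BDNF (ENSMUSG00000068747, GRCm38 chr3:108284082-108361511, plus strand). In Control mice Sort1 was at 274, 262, 289, 287 and 285 CPM in D1 and at 261, 244, 259, 185 and 233 CPM in D2. All D1 values were above all D2 values, by a small gap, and the log2 difference of 0.24 (standard error 0.120) did not pass (edgeR quasi-likelihood test, adjusted p 0.263). In Resilient mice the D1 libraries were at 302, 280.2, 279, 301 and 233 CPM and the D2 libraries at 217 to 254 CPM, and D1 replicate 5 lay inside the D2 range. The log2 difference there was 0.21 (95% interval -0.03 to 0.46).

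In Susceptible mice Sort1 was at 354, 301, 288, 283 and 358 CPM in D1 and at 150.3, 168, 273, 209.8 and 256 CPM in D2. The groups did not overlap, and the lowest D2 values were those of replicates 1 and 2. The log2 difference was 0.58 (standard error 0.121, 1.5-fold higher in D1, edgeR quasi-likelihood test, adjusted p 0.000901). It fell to 0.39 without D2 Susceptible replicates 1 and 2 (edgeR adjusted p 0.0137) and to 0.33 without all 4 libraries that stood apart (edgeR adjusted p 0.0476). Averaged over the treatments Sort1 was 1.27-fold higher in D1 (log2 difference 0.35, standard error 0.0694, edgeR adjusted p 0.000275), and 13 of 15 D1 libraries were above all D2 libraries.

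Bdnf, Ntrk2 and Sort1 were thus the 3 of 6 members that passed in Susceptible mice, where 23.9% of all genes passed in either direction and 10.5% were higher in D1. The same 3 passed in the average over the treatments, where 29.3% of all genes passed and 13.8% were higher in D1. None was lower in D1. The median log2 difference of the 6 members was 0.17 in the average, and that of all genes tested was 0.00. With only the D1 and D2 Susceptible libraries in the fit, none of the 3 passed in Susceptible mice (edgeR adjusted p 0.118 for Bdnf, 0.1004 for Ntrk2 and 0.0546 for Sort1). The log2 differences in that fit were 1.19, 0.33 and 0.59, and the genes that passed over the whole table went from 4621 to 915.

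**Figure D3:**
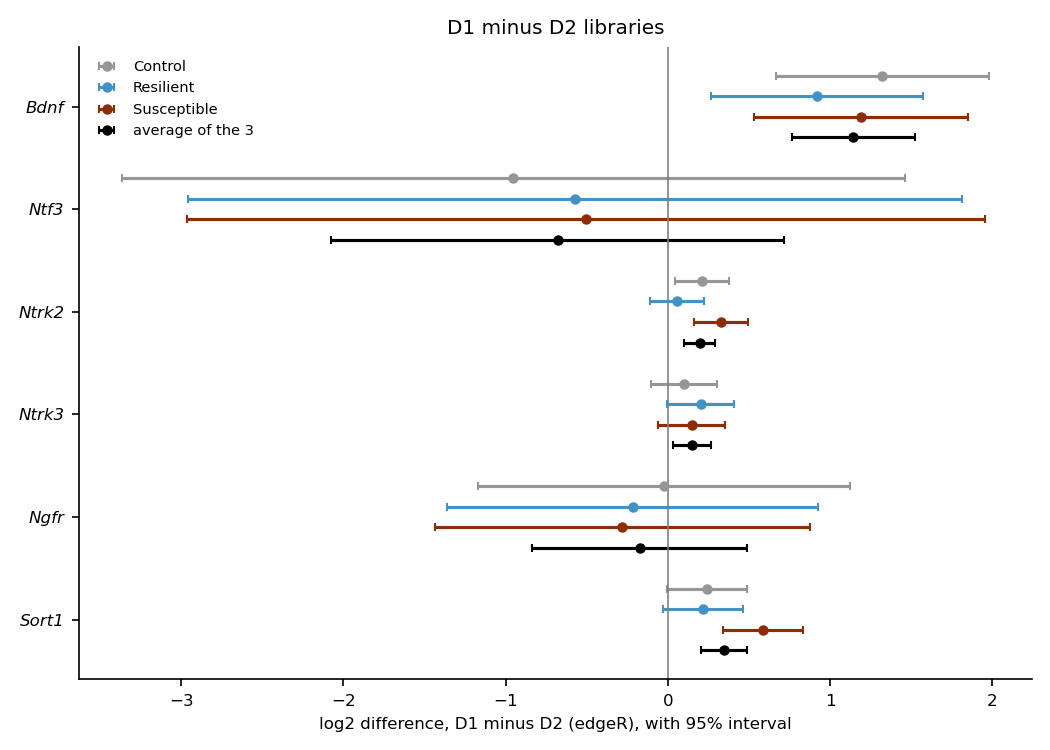
Log2 difference D1 minus D2 of the 6 genes in Control (grey), Resilient (blue) and Susceptible mice (brown) and in the average of the 3 (black), with 95% intervals from edgeR. The Bdnf points lie at 0.92 to 1.32, the Ntrk2, Ntrk3 and Sort1 points at 0.05 to 0.58, and the intervals of Ntf3 and Ngfr cross 0 throughout.

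Markers of other cells moved with the class of the libraries. All 6 markers of glutamatergic neurons of neighbouring regions (among them Slc17a7, Slc17a6, Neurod6, Tbr1 and Nrn1) were higher in D1 (median log2 difference 1.26, edgeR adjusted p at most 7.21e-05). Their summed level was 501 to 973 CPM in the D1 libraries and 154 to 551 CPM in the D2 libraries, and none was at 0 in any library. Of 6 GABAergic interneuron markers 5 were higher in D1 and 1 lower (summed level 293 to 484 CPM against 77.0 to 284 CPM), and of 5 cholinergic markers 1 was higher (3.52 to 10.3 CPM against 1.76 to 14.2 CPM, with up to 4 of the 5 at 0 in a D2 Susceptible library). In the other direction, 5 of 6 astrocyte markers were lower in D1 (245 to 688 CPM against 269 to 611 CPM), as were 6 of 6 oligodendrocyte (357 to 943 CPM against 409 to 1867 CPM), 2 of 4 oligodendrocyte precursor (7.11 to 22.3 CPM against 11.8 to 28.8 CPM), 3 of 6 microglial (22.6 to 71.1 CPM against 25.6 to 65.8 CPM), 5 of 5 endothelial (10.9 to 34.1 CPM against 49.4 to 317 CPM) and 6 of 6 mural markers (6.71 to 26.5 CPM against 47.9 to 132 CPM). Of 5 markers of all medium spiny neurons 4 were lower in D1 (4227 to 5351 CPM against 5481 to 7984 CPM). In the average over the treatments 29.3% of all genes tested passed in either direction and 13.8% were higher in D1. The counts of the single marker lists are descriptions beside those shares. The part of these markers in the differences of Bdnf, Ntrk2 and Sort1 was not tested. In such libraries a different share of cells and a different amount of RNA per cell cannot be told apart.

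**Figure D4:**
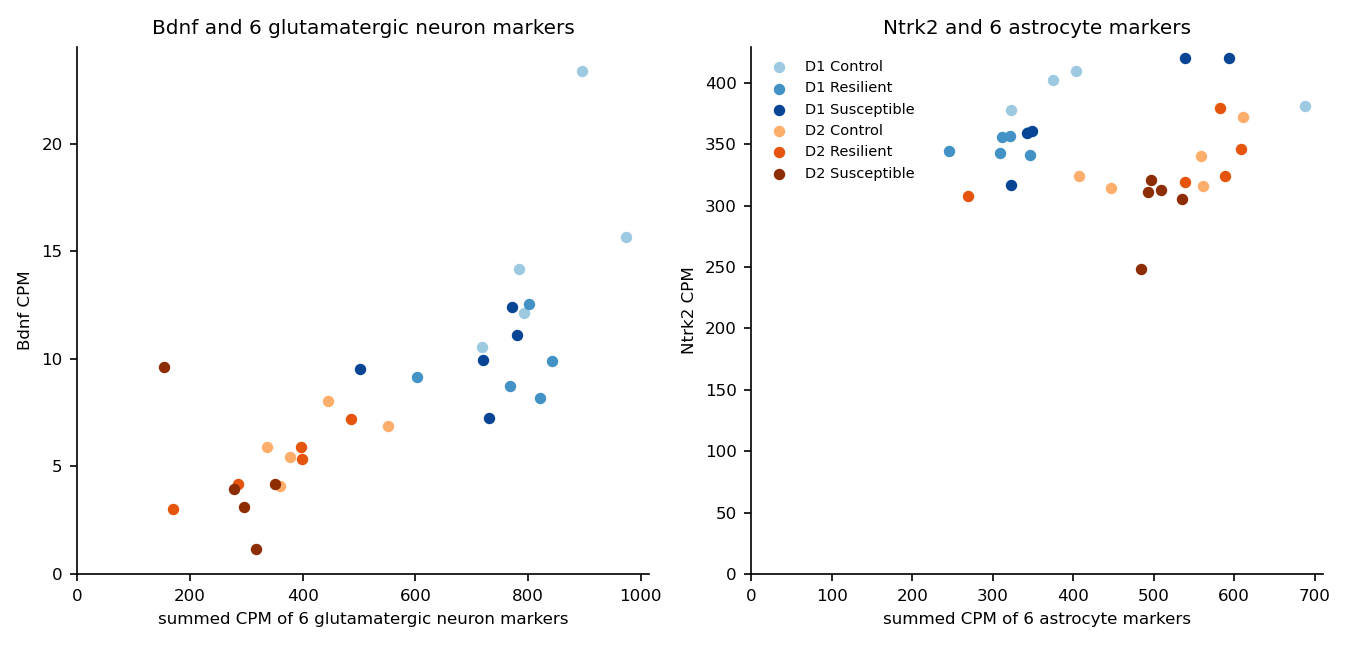
Left, CPM of Bdnf against the summed CPM of 6 glutamatergic neuron markers; right, CPM of Ntrk2 against the summed CPM of 6 astrocyte markers; 1 point a library, coloured by group. D1 libraries sit at 501 to 973 CPM of glutamatergic markers and 7.26 to 23.4 CPM of Bdnf, D2 libraries at 154 to 551 CPM and 1.16 to 9.60 CPM.

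The main question of the stress design is whether the genes differ between Control, Resilient and Susceptible mice within a class. No member passed the threshold in these comparisons with edgeR. That does not show equal levels, since the 95% intervals given below leave room for changes. In the 3 comparisons of D1 libraries 0 of 6 members passed, and so did 0% of all genes. In D2, 0 of 6 passed in Susceptible against Control (0.00516% of all genes), in Resilient against Control (0%) and in Susceptible against Resilient (0.0516%). Of the 36 tests of members none reached an unadjusted p under 0.05; the share of all genes that did was 2.4%, 2.6% and 3.49% in the D1 comparisons of Susceptible with Control, Resilient with Control and Susceptible with Resilient, and 15.7%, 4.2% and 19.1% in the same comparisons of D2. The smallest adjusted p of a member was 0.272, for Ntrk2 in D2 Susceptible against Resilient (edgeR's quasi-likelihood test). The counts over all genes in D2 turned on single libraries: without D2 Susceptible replicate 3, 828 genes passed against Control in place of 1 and 1964 against Resilient in place of 10, and without replicate 5 these were 170 and 1607. No member passed without either library.

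The smallest unadjusted p was that of Bdnf in D1 Resilient against Control. The values listed above put 4 of 5 Resilient libraries below all 5 Control libraries, and only replicate 3, at 12.6 CPM, was inside the Control range. The log2 change from Control to Resilient was -0.64 (standard error 0.316, 95% interval -1.29 to 0.00, unadjusted p 0.0505, edgeR quasi-likelihood adjusted p 1.00). With limma voom and sample quality weights in place of edgeR it was -0.69 and passed (adjusted p 0.0166). From Control to Susceptible it was -0.59 (standard error 0.318, 95% interval -1.24 to 0.06, edgeR adjusted p 1.00), and between Susceptible and Resilient 0.05 (95% interval -0.59 to 0.70). The first 2 of these changes share the D1 Control libraries, and without D1 Control replicate 5, at 23.4 CPM, they were -0.44 and -0.38. Of the 6 glutamatergic markers none passed in either; their median change was -0.17 from Control to Resilient and -0.30 from Control to Susceptible. Of the 6 astrocyte markers none passed either, with median changes of -0.91 and -0.20. Their part in the Bdnf values was not tested. In D2 the Bdnf changes were -0.46 for Susceptible against Control, -0.24 for Resilient against Control and -0.22 for Susceptible against Resilient, with standard errors of 0.318 to 0.319. The first ran from -0.96 without D2 Susceptible replicate 2 to -0.22 without replicate 1. The second ran from -0.40 without D2 Resilient replicate 2 to -0.098 without replicate 1. The last was 0.02 without D2 Susceptible replicate 1 and -0.72 without replicate 2.

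For the Trk receptors the intervals were narrow. Over the 6 stress comparisons the log2 changes of Ntrk2 ran from -0.16 to 0.11, and the 95% intervals stayed within -0.33 and 0.27. The 5 D1 Resilient libraries, at 341 to 357 CPM, were all below the 5 D1 Control libraries, at 360.1 to 409 CPM, a log2 change of -0.15 (standard error 0.0812, edgeR adjusted p 1.00). How many of all genes separated in this way was not counted. In D2, Ntrk2 was at 248 to 321 CPM in Susceptible and at 308 to 379.8 CPM in Resilient libraries, with a change of -0.16 (standard error 0.0812, edgeR adjusted p 0.272) that was -0.10 without D2 Susceptible replicate 2. The changes of Ntrk3 ran from -0.02 to 0.11, with intervals within -0.23 and 0.31.

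Sort1 changes ran from -0.19 to 0.18, with 95% intervals within -0.43 and 0.43. In D2 Susceptible libraries they were -0.16 against Control and -0.19 against Resilient, and both turned to small positive values (0.05 and 0.03) without D2 Susceptible replicates 1 and 2. For the scarce members the data set only wide limits. Ngfr changes ran from -0.58 to 0.69 with intervals from -1.74 to 1.84, and Ntf3 changes from -0.06 to 0.56 with intervals from -2.78 to 3.06. Stress effects within those intervals could not be detected for Ngfr and Ntf3 in these libraries.

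**Figure D5:**
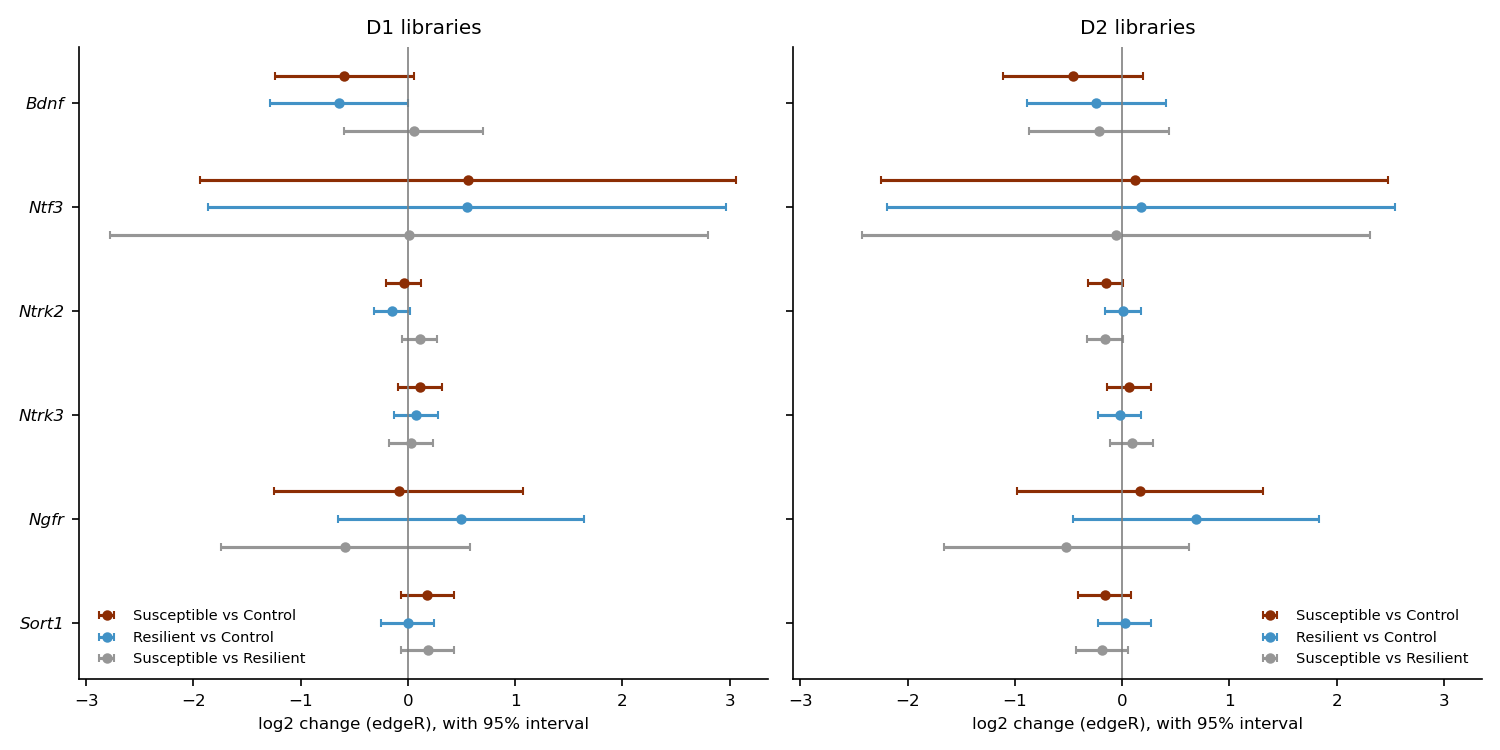
Log2 change between treatments within D1 libraries (left) and D2 libraries (right) for the 6 genes, with 95% intervals from edgeR. Every interval crosses 0; those of Ntrk2 and Ntrk3 stay within -0.33 and 0.31, and those of Ntf3 reach from -2.78 to 3.06.

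Whether stress acted differently in the 2 classes was tested as the D1 change minus the D2 change. No member passed in the 3 such tests, and 0% of all genes did in each. At an unadjusted p under 0.05 there were 2 of 18 tests of members, both for Susceptible against Resilient, where 12.4% of all genes reached it. Ntrk2 changed by 0.11 in D1 and by -0.16 in D2, a difference of 0.27 (standard error 0.115, unadjusted p 0.0245, edgeR quasi-likelihood adjusted p 0.330). Sort1 changed by 0.18 and by -0.19, a difference of 0.37 (standard error 0.170, unadjusted p 0.0372, adjusted p 0.366 by the same edgeR test). Without D2 Susceptible replicates 1 and 2 the difference was 0.20 for Ntrk2 and 0.15 for Sort1 (edgeR adjusted p 0.915 and 0.972). With voom and sample quality weights that of Sort1 was 0.061. For Bdnf the differences were -0.13 (Susceptible against Control), -0.40 (Resilient against Control) and 0.27 (Susceptible against Resilient), with standard errors of 0.448 to 0.450. Without D2 Susceptible replicate 2 the first was 0.38 and the last 0.77.

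The balance of the 2 Trk receptors was followed as the log2 ratio of Ntrk3 to Ntrk2 in each library (CPM plus 1). It depends on how the library is scaled only through the added 1. It was -1.21, -0.90, -0.85, -0.75 and -0.92 in D1 Control and -0.80, -0.77, -0.70, -0.66 and -0.54 in D1 Resilient libraries. The D1 Resilient ratios were thus higher on the whole, with an overlap at the Control value of -0.75. The difference was 0.23 (exact two-sided permutation p 0.0238, adjusted p 0.111 over 7 comparisons of this ratio). In D2 the ratio was -0.74, -0.93, -0.75, -0.88 and -0.73 in Control and -0.62, -0.23, -0.76, -0.67 and -0.64 in Susceptible libraries, with a difference of 0.22 (exact two-sided permutation p 0.0317, adjusted p 0.111). Without D2 Susceptible replicate 2, the library at -0.23, it was 0.13 (exact permutation p 0.0714), and without replicates 1 and 2 it was 0.11. None of the 7 passed after adjustment. The smallest p that 5 against 5 libraries allow is 0.00794, which for a single comparison among 7 becomes an adjusted p of 0.0556, so no comparison could have passed alone. The ratio in Control mice differed between D1 and D2 by -0.12 (exact two-sided permutation p 0.230, adjusted p 0.322).

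The other genes of the pathway came from lists of 87 genes, of which 83 were tested. Averaged over the treatments 13 were higher and 11 lower in D1 (edgeR adjusted p under 0.05), with a median log2 difference of 0.00, as over all genes. These 24 are 28.9% of the pathway genes tested, beside 29.3% of all genes, and the counts of the single lists are given as descriptions. Among the genes that make and release the ligands, Cadps2, which acts in dense-core vesicle release, was 1.38 higher on the log2 scale (standard error 0.110, edgeR adjusted p 4.11e-11), with Control levels of 67.5 ± 9.53 CPM (SD) in D1 and 27.0 ± 7.09 CPM in D2. Pcsk1, a proprotein convertase, was 0.80 higher (standard error 0.0967, edgeR adjusted p 1.27e-07), at 25.8 ± 6.23 and 13.7 ± 2.87 CPM in the Control groups. Of the 10 genes of that list that were tested, Cadps2 and Pcsk1 were higher in D1 and Plat was lower.

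Of 5 other receptors and relatives of sortilin, Sorcs1 alone passed, higher in D1 by 0.44 (standard error 0.0825, edgeR adjusted p 0.000136). Of 36 adaptors and kinases downstream of Trk, 5 were higher and 4 lower: the docking protein Gab2 was higher by 0.54 (standard error 0.0725, edgeR adjusted p 8.06e-07), and its relative Gab1 lower, with a log2 difference of -0.71 (standard error 0.178, edgeR adjusted p 0.00291). The GTPase Hras and the PI3 kinase subunit Pik3r1 were lower, at -0.33 and -0.21. Of 11 partners and effectors of p75NTR, 2 were higher and 3 lower. Lingo1, a co-receptor of p75NTR, was higher by 0.64 (standard error 0.0723, edgeR adjusted p 2.80e-08), and Bex3, which binds its death domain, and the kinase Irak1 were lower, at -0.24 and -0.31. Of 12 regulators of Bdnf transcription none was higher and 3 were lower, among them the repressor Rest at -0.54 (standard error 0.145, edgeR adjusted p 0.00474).

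None of the 83 pathway genes passed in any stress comparison (edgeR). At an unadjusted p under 0.05 there were 6, 8 and 4 in the D1 comparisons of Susceptible with Control, Resilient with Control and Susceptible with Resilient. In the same comparisons of D2 there were 24, 2 and 23. The shares of all genes that reached it were 2.4%, 2.6% and 3.49% in D1 and 15.7%, 4.2% and 19.1% in D2. These counts are descriptions. The 9 tested genes known to be induced by TrkB signalling were followed as a list. Whether TrkB signalling set their levels here was not tested. In D1 all 9 had values below 0 in Resilient against Control (median -0.35, all genes -0.01) and in Susceptible against Control (median -0.28, all genes -0.01), comparisons that share the Control libraries. Arc, which acts at synapses, had a log2 change of -0.86 in Resilient D1 libraries, the nuclear receptor Nr4a1 -0.80 and the MAP kinase phosphatase Dusp6 -0.43, each with an edgeR adjusted p of 1.00. With limma voom and sample quality weights Arc, Nr4a1 and Dusp6 passed (adjusted p 0.0338, 0.0298 and 0.00745). With that method 173 of all genes passed in place of 0. In D2 Susceptible libraries the transcription factor Fos was at -0.75 against Control and -0.97 against Resilient (edgeR adjusted p 0.195 and 0.0736). Most of the list lay below 0 there, but not all: 1 of the 9 genes lay above 0 against Control and 2 against Resilient. Vgf and Junb were at -0.54 and -0.51 against Control and Arc at -0.71 against Resilient, and none passed. Each passed without D2 Susceptible replicate 3 (edgeR adjusted p 0.0409, 0.0369 and 0.0164), where 828 and 1964 of all genes passed against Control and Resilient. Under the alternatives other than leaving out 1 library they came as near 0 as -0.20, -0.19 and -0.41. Homer1, a scaffold protein of synapses, named here after its values were seen, was at 0.51 against Control and 0.62 against Resilient (edgeR adjusted p 0.246 and 0.113). Against Resilient, Homer1 passed with DESeq2's Wald test (adjusted p 0.0415) and was 0.046 without D2 Susceptible replicates 1 and 2. Fos was -0.89 without them and also passed with DESeq2 (adjusted p 0.0196). In D2 Susceptible against Resilient, Gab2 was at -0.55 (edgeR adjusted p 0.0558), and at -0.35 without the 4 libraries that stood apart (edgeR adjusted p 0.800).

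Within groups the members varied by very different amounts. The coefficient of variation of the CPM between the 5 libraries of a group was 2.23% to 11.9% for Ntrk2, 4.37% to 18.7% for Ntrk3 and 4.07% to 25.2% for Sort1, 17.6% to 71.2% for Bdnf, 24.7% to 59.7% for Ngfr and 58.5% to 134% for Ntf3. The widest Bdnf and Sort1 spreads were those of D2 Susceptible, which holds replicates 1 and 2. After subtraction of each group's mean log2 CPM, the strongest correlation between members over the 30 libraries was that of Bdnf and Ngfr (r 0.61), and Ntrk2 and Ntrk3 had r 0.22. These values, like the next ones, are descriptions, since libraries share depth and composition.

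Among 10204 genes compared, those closest to Sort1 in the same measure included Tacc1 (r 0.94, and 0.91 without the 2 libraries farthest from the median) and Prepl (r 0.94 and 0.90). Closest to Ntrk3 were Ncoa2 (r 0.82 and 0.77), Ptpn4 (r 0.80 and 0.70) and Zdbf2 (r 0.80 and 0.74), and closest to Ntrk2 were Fyco1 (r 0.76 and 0.61), Fmnl2 (r 0.75 and 0.63) and Hivep1 (r 0.71 and 0.53). For Bdnf they were Grpel2 (r 0.84, and 0.52 without the 2 libraries), Fst (r 0.83 and 0.62) and Tmem107 (r 0.82 and 0.46), so these rest in part on 2 libraries. The same holds for Ngfr, whose closest genes included Dph7 (r 0.91 and 0.66) and Inpp5e (r 0.91 and 0.62). Those of Ntf3 included Csrnp1 (r 0.70 and 0.70) and Mrap2 (r 0.68 and 0.65), at counts that are 0 in 5 libraries.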

How the data were processed

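Per the labels' protocols, ribosome-bound RNA was immunoprecipitated through the HA tag and SMART-Seq v4 libraries were made from 10 ng of it. The authors deposited raw counts of reads per gene for 30 libraries and as 1 table of the series, identical in all 30 columns; per the submitters' processing notes HISAT2 and HTSeq were used with GRCm38/mm10. The annotation release is not given in the sources used here, nor are tool versions or the strand setting. Without the strand setting, reads of Bdnf and Sort1 cannot be told apart from those of the antisense genes Gm45346 and Gm12523, which had 60 and 7 counts in all. Lines of unassigned reads (10.1% to 53.3% of a library) stayed out of all totals.

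Groups came from the sample titles. Symbols, coordinates and exon lengths are those of GENCODE M21, and start windows those of RefSeq. Genes were filtered with filterByExpr (minimum count 10, minimum total 15), scaled by TMM and tested by the robust quasi-likelihood test of edgeR 4.0.16 (R 4.3.3) in 1 model of 6 groups, with Benjamini-Hochberg adjustment over 19368 genes in each of 13 comparisons at a threshold of 0.05. The script was tested on simulated counts. Alternatives were DESeq2 1.42.0 (size factors, and the Wald test), no filter, only the groups compared, a block for the replicate number, limma 3.58.1 voom with quality weights, and leaving out 1, 2 or 4 libraries. Log2 CPM for correlations used a prior count of 2. The ratio was tested by exact permutation.

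The members, the lists and the tests were chosen with earlier results of these data known. All members were tested in every comparison, and some of their values that did not pass are given only as ranges or not at all. Of the pathway lists up to 5 genes each way with the smallest adjusted p under 0.05 could be named, and where none passed up to 3 by unadjusted p, given as values; Plat and Rest were named after their values were seen. Some genes that these rules would name are not reported here. The genes nearest to a member, up to 3, had a mean of at least 5 CPM. Pathway lists cover other ligands, other receptors and the sortilin family, precursor processing and release, Trk adaptors and pathways, p75 partners and effectors, genes induced by TrkB signalling, and regulators of Bdnf transcription. Figures used matplotlib 3.10.9, and pandas 2.3.3 made the tables.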

Additional observations from a re-analysis of the deposited data

Results flagged for a closer look

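Of 42 groups of 5 libraries examined, 6 genes and 1 ratio in 6 groups, 3 held a library far from the others by Dixon's criterion (a gap of more than 0.71 of the group's range). Chance gives about 1 in 20. Ntrk2 in D2 Susceptible replicate 2 was at 248 CPM, below the next library at 305 CPM (gap 0.788 of the range). In the same library the log2 ratio of Ntrk3 to Ntrk2 was -0.23, above the next at -0.62 (gap 0.732), and it is 1 of the 2 libraries with few genes detected. Ntf3 in D1 Susceptible replicate 1 was at 0.812 CPM, above the next at 0.228 CPM (gap 0.719), from 8 counts; this is the library in which Gm42418 took 54.9% of the gene counts.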

How the results depend on the processing

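Of 971 values of members under the alternatives, 893 kept their direction and their side of the threshold, 43 passed where the reported value did not, 4 no longer passed and 31 changed sign, none of the last past the threshold. These values cover only the pairs of member and comparison that were followed. Sort1 in D1 Resilient against Control (log2 change -0.0019), for example, is not among them, so the sign changes are not a full count. The stress values of Ngfr and Ntf3, at 0 to 97 counts a library, carry the widest intervals; how much of that is counting error was not tested. Calls in Susceptible mice depend on whether the other groups are in the fit. The fit of only the groups compared takes its own spread, filter and scaling, and the part of each was not tested.

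The count of members that passed in D1 against D2 went from 1 to 4 in Control mice with voom. In Resilient mice it went from 0 to 1 with the replicate block (Bdnf 1.00, edgeR adjusted p 0.0370), to 1 with only the groups compared, to 1 without 4 libraries and to 3 with voom. In Susceptible mice it went from 3 to 0 with only the groups compared, and in D1 Resilient against Control from 0 to 1 with voom. The block changed no other count of members. Libraries with the same number had r of -0.168 to 0.0779 between their deviations from the group means, none over 0.1. Whether they shared a batch was not tested. Counts over all genes moved too: with voom from 1608 to 5491 in Control and 1288 to 3416 in Resilient D1 against D2 and 0 to 173 in D1 Resilient against Control, with only the groups compared from 1288 to 2184 in Resilient and 4621 to 915 in Susceptible, and without 4 libraries to 2551 in Resilient. Leaving out 1 library left the counts of members at 1 in Control, 0 in Resilient, 3 in Susceptible and 3 to 4 in the average. Counts of pathway genes moved most with voom (8 to 26 in Control and 4 to 13 in Resilient D1 against D2, 25 to 13 in Susceptible, 0 to 6 in D1 Resilient against Control, 0 to 2 in the difference of the Resilient changes), with only the groups compared (4 to 9 in Resilient, 25 to 7 in Susceptible), with DESeq2's Wald test (4 to 7 in Resilient D1 against D2, 0 to 1 and 0 to 11 in D2 Susceptible against Control and Resilient), without 2 libraries (25 to 9) and without 4 (4 to 9 and 25 to 8). Without D2 Susceptible replicate 3 it was 10 against Control, 16 against Resilient and 1 in the difference of changes from Susceptible to Resilient, without replicate 4 it was 6 against Resilient, and without replicate 5 it was 1 against Control and 12 against Resilient; without D2 Control replicate 4 it was 5 in Control D1 against D2. Over all genes the 4 D2 counts without replicates 3 and 5 were 828 and 1964, and 170 and 1607, and without replicate 4 it was 412 against Resilient.

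Among the results followed under the alternatives, these values changed sign, and the cause was not tested. Bdnf was 0.0638 with voom in D2 Resilient against Control. Its difference of changes from Control to Susceptible was 0.11 without 2 libraries, 0.13 without 4, and -0.36 to 0.38 leaving out 1. Sort1 in D2 Susceptible against Control was 0.0501 without 2 and 0.0524 without 4 libraries, and against Resilient 0.0292, 0.0333 and, with voom, 0.0312. Ntf3 was -0.23 without 4 libraries in D1 Susceptible against Control, and in D2 Susceptible against Resilient 0.67 without 2 and 0.82 without 4. Leaving out 1 library, Ntrk2 ran from -0.0821 to 0.0183 in D1 Susceptible against Control and from -0.0426 to 0.0466 in D2 Resilient against Control, where Ntrk3 ran from -0.0720 to 0.0191 and the log2 ratio of Ntrk3 to Ntrk2 from -0.11 to 0.0348. Bdnf ran from -0.0333 to 0.16 in D1 and from -0.72 to 0.0225 in D2 for Susceptible against Resilient. Ntf3 ran from -0.23 to 0.96 in D1 Susceptible against Control and from -1.05 to 0.27 in D2 Susceptible against Resilient.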
